A study of Homo sapiens with 22 samples.

Results

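Enzymes that add or remove acetyl and methyl groups on histones and DNA set how tightly chromatin is packed and which promoters can be read. Transcripts of 45 such enzymes were followed in PC9 cells, a human lung adenocarcinoma line that depends on an activating EGFR deletion, and in 4 populations derived from it. The genes were 12 demethylases of histone H3 lysines 4, 9 and 36, 3 demethylases acting on lysine 27, 11 deacetylases, 2 sirtuins, 4 core proteins of Polycomb repressive complex 2 (PRC2), 5 methyltransferases of lysine 9, 3 of lysine 4, 3 DNA methyltransferases and 2 TET dioxygenases. They were chosen by name, as chromatin enzymes linked to drug tolerance, through the current or older symbol of each Ensembl identifier, and all 45 were among the 17165 genes of the deposited table.

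The libraries were made from polyadenylated RNA and numbered 22, with 2 in each of 11 groups. WZ4002-tolerant cells, GR2 cells and GR3 cells received WZ4002, a covalent EGFR inhibitor, or vehicle. Gefitinib-tolerant cells received gefitinib, a reversible EGFR inhibitor, or vehicle. Parental PC9 cells received WZ4002, gefitinib or vehicle, and every treatment lasted 24 h. GR2 and GR3 are named in the labels only as PC9 derivatives of a study on resistance to EGFR inhibition, and whether each is 1 clone is not given in the sources used here. The labelled inhibitor dose is 1 mM, a unit in doubt, since such inhibitors are commonly given to cells in the micromolar range. The labels do not say that the 2 libraries of a group came from separate cultures, so p-values here describe scatter between libraries that could be technical only.

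Histone deacetylases remove acetyl groups and mostly act inside corepressor complexes, whereas class IIa deacetylases shuttle between nucleus and cytoplasm and bind transcription factors of the MEF2 family. Lysine demethylases undo the methyl marks that PRC2, SUV39H1, SUV39H2 and the KMT2 proteins write, and DNMT1 copies DNA methylation after replication. In PC9 cells the field has linked survival under EGFR inhibition to a reversible chromatin state that needs the H3K4 demethylase KDM5A and histone deacetylase activity. RNA levels, as measured here, do not give enzyme amount or activity.

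Sequencing depth, estimated from the smallest steps between values, was about 23.6 to 49.6 M reads a library, and the lowest member value, 2.11 CPM for SUV39H1 in a WZ4002-treated parental library, stood for 69 reads. DUSP6, a phosphatase gene induced by EGFR and ERK signalling, checked that the inhibitors acted. Its log2 change was -3.09 in WZ4002-tolerant, -3.10 in gefitinib-tolerant, -5.26 in GR3 and -7.15 in GR2 cells. Parental cells had -6.23 with WZ4002 and -6.32 with gefitinib. The fall was smaller in tolerant than in parental cells, by 3.14 with WZ4002 and 3.22 with gefitinib (limma adjusted p 0.00835 and 0.0101). It was smaller in GR3 than in GR2 cells by 1.89 (limma adjusted p 0.0426). The epithelial markers EPCAM, CDH1, KRT8, KRT18 and KRT19 were at 106.9 CPM or more in every library, while VWF, COL1A2, ACTA2 and PDGFRB did not exceed 2.86 CPM, and COL1A1 lay between 5.27 and 18.4 CPM. PTPRC, CD3E, CD68 and PECAM1 were looked for and not found under these symbols among the genes of the deposited table.

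The members spanned a narrower range than the median gene. The ratio of the highest to the lowest group mean had a median of 1.95 among the 45 members and 2.53 among all 15485 genes tested, and it passed 2 in 18 members (40%) and in 67.4% of genes. HDAC9 (14.4), HDAC5 (14.1), HDAC4 (5.39), EZH2 (5.2) and SUV39H2 (5.16) had the widest ratios. EHMT1 and KDM6A had the narrowest, both 1.34, and KDM5A had 1.4. Of the class IIa deacetylase genes HDAC9, HDAC5 and HDAC4 spanned the most and HDAC7 little (1.51), and KDM5A was among the flattest members.

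A gene is said here to rise or fall when its difference on the log2(CPM + 1) scale passed a Benjamini-Hochberg adjusted p of 0.05 in limma's moderated test across all 15485 genes. Such differences understate changes of low genes. In the WZ4002 response of WZ4002-tolerant cells 3 members rose and 7 fell, where 17.0% of genes rose and 15.6% fell. In the gefitinib response of gefitinib-tolerant cells 4 rose and 4 fell, against 15.2% and 13.6% of genes. In the WZ4002 response of GR3 cells 2 rose and 6 fell, against 12.1% and 9.87% of genes. In each of these 3 responses most members did not pass the test.

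In the WZ4002 response of GR2 cells 13 members rose and 10 fell, against 27.4% and 28.3% of genes. In parental cells 11 rose and 11 fell with WZ4002, against 25.1% and 22.3% of genes, and 10 rose and 9 fell with gefitinib, against 23.5% and 21.8% of genes. In GR2 and parental cells the shares of members, 20% to 28.9% in each direction, were of the order of those of all genes. In WZ4002-tolerant, gefitinib-tolerant and GR3 cells the rising members, 6.7%, 8.9% and 4.4%, and in gefitinib-tolerant cells also the falling ones, 8.9%, were smaller shares than those of all genes, a gap that was not tested. The median log2 difference of the members lay between -0.05 and 0.14 in the 6 responses, beside 0.01 to 0.04 for all genes. The number of calls depended on single libraries. A call said below to be lost without a named library may be lost without others too. Left-out libraries gave 3 calls in WZ4002-tolerant cells (first vehicle library), 2 and 3 in gefitinib-tolerant cells (first vehicle and second gefitinib library), 2 in GR3 cells (second WZ4002 library) and 12 for WZ4002 in parental cells (first vehicle library). Calls that held without each library in turn numbered 3 of 10 in WZ4002-tolerant, 2 of 8 in gefitinib-tolerant, 2 of 8 in GR3, 15 of 23 in GR2, 8 of 22 in WZ4002-treated parental and 10 of 19 in gefitinib-treated parental cells.

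There were 5 responses that share no library: WZ4002 in WZ4002-tolerant, GR3, GR2 and parental cells and gefitinib in gefitinib-tolerant cells. HDAC5 was the 1 member that rose in all 5 (2.2% of members, beside 814 genes, 5.26%). HDAC4, SUZ12, SUV39H2 and DNMT1 fell in all 5 (8.9% of members, beside 693 genes, 4.48%). The heat map of members by comparison shows these rows as unbroken bands.

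**Figure D1:**
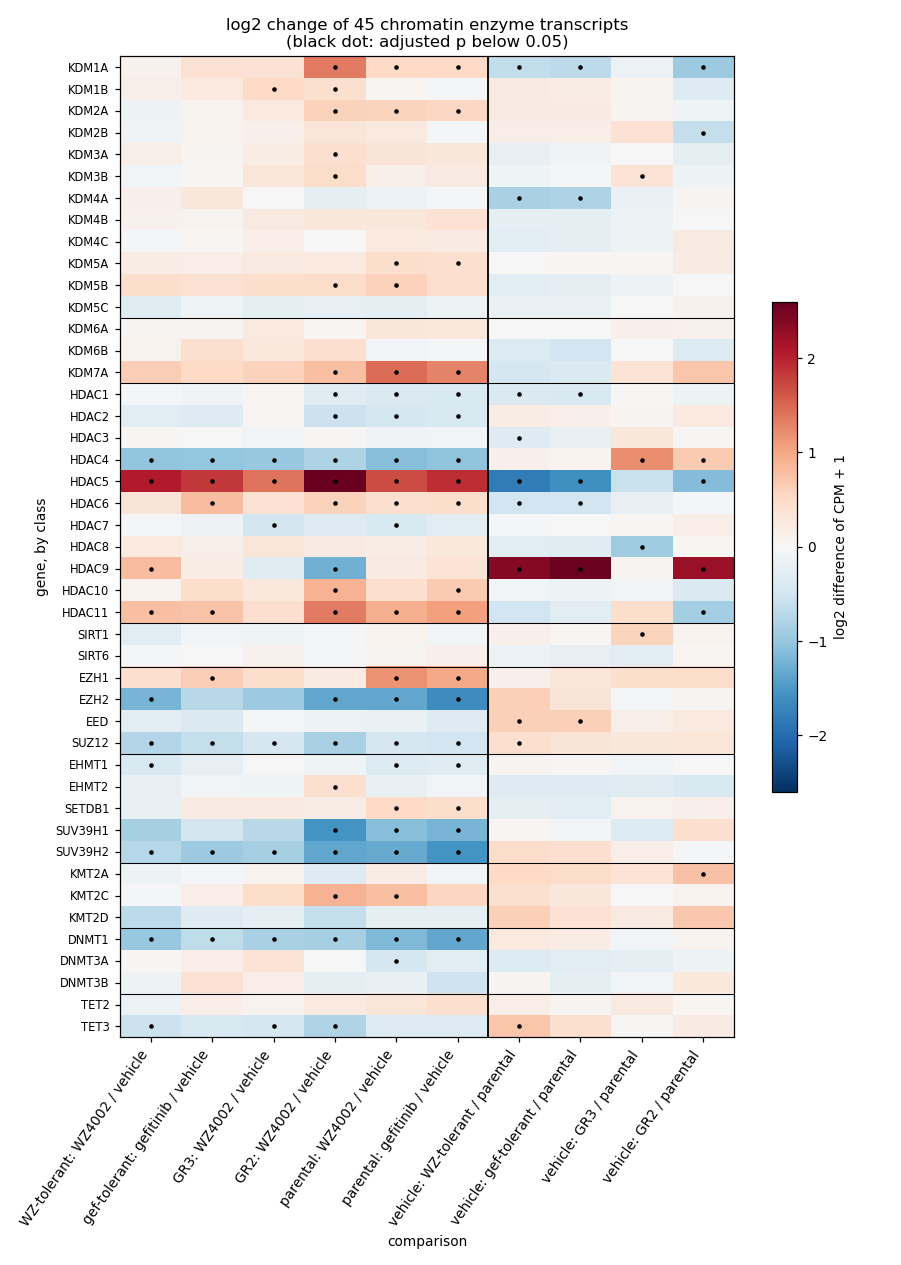
Log2 difference of CPM + 1 of 45 members (rows, grouped by class and divided by lines) in 6 drug responses and 4 comparisons of vehicle-treated populations with parental cells (columns), red for higher and blue for lower in the group named first, with a black dot for an adjusted p below 0.05. HDAC5 carries a dot with a higher value in all 6 responses and HDAC4, SUZ12, SUV39H2 and DNMT1 a dot with a lower value, while HDAC9 is higher in WZ4002-tolerant, gefitinib-tolerant and GR2 cells but not in GR3 cells.

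Class IIa deacetylase genes HDAC4, HDAC5, HDAC7 and HDAC9 encode related signal-dependent corepressors, and each behaved differently. HDAC5 rose between 2.64-fold and 5.92-fold in every drug response, while HDAC4 fell to between 0.46 and 0.57 of its vehicle level. HDAC9 was 4.73-fold to 5.87-fold higher in WZ4002-tolerant, gefitinib-tolerant and GR2 cells than in parental cells under vehicle. HDAC7 fell only modestly where it passed the test.

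HDAC5 had 49.5 and 40.4 CPM under WZ4002, against 7.36 and 13.4 CPM under vehicle, in WZ4002-tolerant cells. In gefitinib-tolerant cells it had 37.4 and 53.1 CPM under gefitinib, against 9.76 and 14.2 CPM under vehicle. In GR3 cells it had 62.3 and 72.8 CPM under WZ4002, against 19.7 and 31.3 CPM under vehicle. In each of these populations both treated libraries lay above both vehicle libraries. In GR2 cells HDAC5 had 92.7 and 117.8 CPM under WZ4002, against 16.5 and 17.2 CPM under vehicle. Parental cells had 119.8 and 128.7 CPM under WZ4002 and 152.5 and 139.5 CPM under gefitinib, against 35.6 and 40.2 CPM under vehicle. The treated and vehicle libraries did not overlap there either. The log2 differences were 2.06, 1.83, 1.40, 2.57, 1.69 and 1.92 in the order WZ4002-tolerant, gefitinib-tolerant, GR3, GR2, parental with WZ4002 and parental with gefitinib, each ± 0.26 (SE, n = 2 and 2), with adjusted p between 8.71e-07 and 0.00131. All 6 calls held without each library in turn.

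HDAC5 also differed between populations, in the other direction. Under vehicle its level was 0.28 of the parental level in WZ4002-tolerant cells (log2 difference -1.82 ± 0.26, SE, adjusted p 0.000245) and 0.33 of it in gefitinib-tolerant cells (-1.60, adjusted p 0.000542). GR2 cells were at 0.46 of the parental level (-1.12, adjusted p 0.00726), a call lost without the second parental vehicle library (adjusted p 0.0631) or the first GR2 vehicle library (0.0671). GR3 cells did not pass the test (-0.59, adjusted p 0.118). Under drug the tolerant cells kept a lower level: the log2 difference was -1.45 for WZ4002-tolerant against parental cells under WZ4002 and -1.69 for gefitinib-tolerant against parental cells under gefitinib. HDAC5 under drug in the tolerant cells, 37.4 to 53.1 CPM, overlapped the 35.6 and 40.2 CPM of vehicle-treated parental cells.

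HDAC4, which recruits class I deacetylase complexes, mirrored HDAC5 with smaller steps. It had 10.96 and 12.93 CPM under WZ4002, against 29.5 and 21.5 CPM under vehicle, in WZ4002-tolerant cells. In gefitinib-tolerant cells it had 13.0 and 10.2 CPM under gefitinib, against 25.0 and 23.7 CPM under vehicle. In GR3 cells it had 28.4 and 25.8 CPM under WZ4002, against 54.6 and 54.0 CPM under vehicle. Both treated libraries were below both vehicle libraries each time. GR2 cells had 17.8 and 24.3 CPM under WZ4002, against 37.7 and 36.7 CPM under vehicle. Parental cells had 9.67 and 10.5 CPM under WZ4002 and 10.2 and 10.9 CPM under gefitinib, against 21.9 and 23.9 CPM under vehicle. The log2 differences were -1.02, -1.01, -0.98, -0.81, -1.11 and -1.05 in the same order of responses, each ± 0.17 (SE), with adjusted p between 9.25e-05 and 0.000819, and all 6 held without each library. None of the 3 tests of a difference between responses called HDAC4; the differences were 0.08, 0.04 and -0.17 with 1 SE of 0.23.

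HDAC4 was higher in vehicle-treated GR3 than in parental cells, 2.32-fold (log2 1.21 ± 0.17, SE, adjusted p 0.000105), and this held without each library. Vehicle-treated GR2 cells were 1.60-fold above parental cells (0.68, adjusted p 0.0113). That call was lost without the first parental library (adjusted p 0.0778) or either GR2 library (0.0927 and 0.0626), and with a term for the position of columns in the table (0.17). Tolerant cells did not pass the test (log2 0.14 and 0.09).

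**Figure D2:**
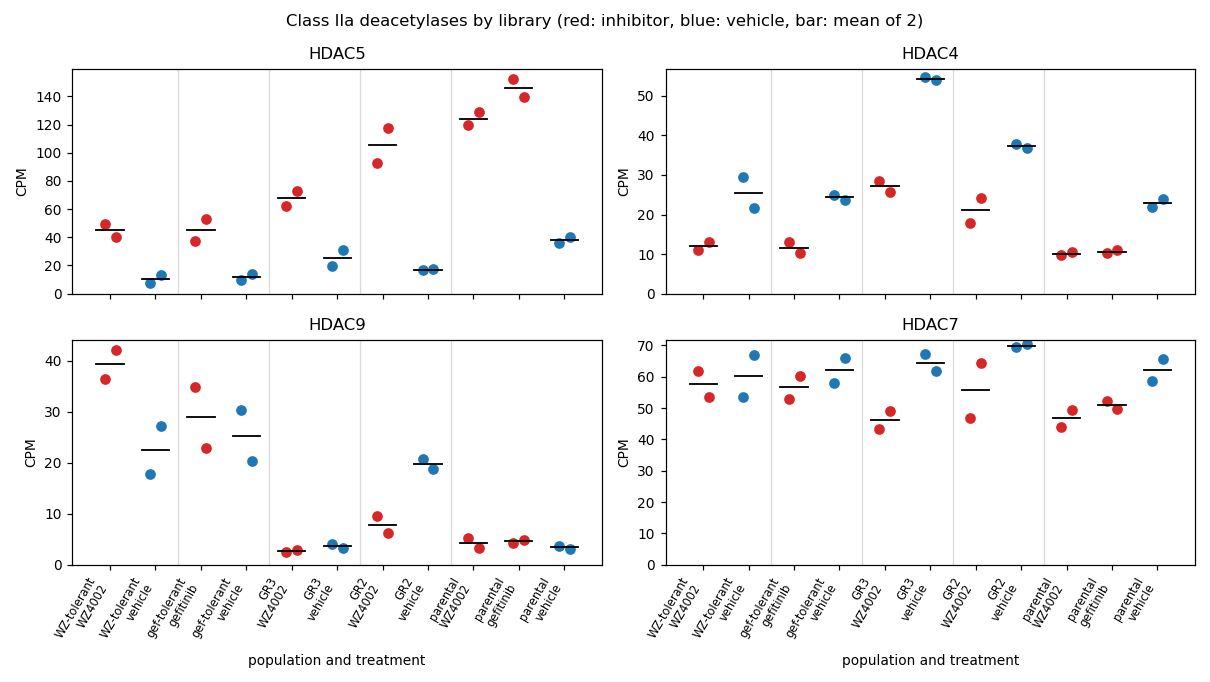
CPM of the class IIa deacetylases HDAC5, HDAC4, HDAC9 and HDAC7 (vertical axes, from 0) in each of the 22 libraries (points, red for inhibitor and blue for vehicle) of 11 groups (horizontal axis), with a bar at the mean of 2. HDAC5 points under inhibitor lie above, and HDAC4 points below, those under vehicle in every population, and HDAC9 lies at 17.8 CPM or more in every library of the tolerant populations.

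HDAC9 differed most between populations. Under vehicle it had 17.8 and 27.3 CPM in WZ4002-tolerant cells, 30.3 and 20.3 CPM in gefitinib-tolerant cells and 20.8 and 18.9 CPM in GR2 cells, against 3.74 and 3.08 CPM in parental cells. GR3 cells had 3.99 and 3.30 CPM, a level that overlaps the parental one. The log2 differences from parental cells were 2.39, 2.55 and 2.24 (each ± 0.26, SE, adjusted p 2.67e-05, 1.37e-05 and 4.6e-05), and 0.07 in GR3 cells (adjusted p 0.883). The 3 calls held without each library, although the comparisons share the parental vehicle libraries. In GR3 against GR2 cells, which share none of those, the log2 difference was -2.17 (adjusted p 1.41e-05).

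Its drug responses went in opposite directions. With WZ4002 HDAC9 fell in GR2 cells to 9.47 and 6.32 CPM, against 20.8 and 18.9 CPM under vehicle (log2 -1.25 ± 0.26, SE, adjusted p 0.000784, held without each library). In WZ4002-tolerant cells HDAC9 rose to 36.5 and 42.2 CPM under WZ4002, against 17.8 and 27.3 CPM under vehicle (0.80, adjusted p 0.0277). That rise was lost without the first vehicle library (adjusted p 0.292), the first WZ4002 library (0.0649) or the second WZ4002 library (0.133). Gefitinib-tolerant cells had 34.9 and 23.0 CPM under gefitinib, against 30.3 and 20.3 CPM under vehicle, which overlap. Under drug HDAC9 was 7.75-fold above parental cells in WZ4002-tolerant cells (log2 2.95) and 5.23-fold in gefitinib-tolerant cells (2.39), both held without each library. The test of tolerant minus parental responses did not call it (0.56, adjusted p 0.414, for WZ4002 and -0.17, adjusted p 0.878, for gefitinib). HDAC7 passed the test in 2 responses, GR3 (-0.47) and WZ4002 in parental cells (-0.41), and both calls were lost without any 1 of their 4 libraries (adjusted p up to 0.184).

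Class I deacetylases HDAC1, HDAC2, HDAC3 and HDAC8 are the nuclear enzymes of the main corepressor complexes. HDAC1 and HDAC2 fell slightly in 3 of the 6 responses, GR2 with WZ4002 and parental cells with each inhibitor, to between 0.68 and 0.80 of the vehicle level. HDAC1 had 128.9 and 124.1 CPM under WZ4002 and 124.98 and 125.01 CPM under gefitinib, against 165.9 and 161.8 CPM under vehicle, in parental cells. Its log2 differences were -0.37 and -0.39 there (± 0.10, SE, adjusted p 0.00855 and 0.00678) and -0.32 in GR2 cells (adjusted p 0.0167); the WZ4002 call in parental cells was lost without the first vehicle library (0.0551) and the GR2 call without 3 of its 4 libraries (up to 0.0936). HDAC2 had 129.3 to 162.4 CPM in the 4 treated parental libraries, against 201.1 and 193.8 CPM under vehicle. The HDAC2 fall held without each library in GR2 cells (-0.55, adjusted p 0.00203). The parental calls with WZ4002 (-0.46) and gefitinib (-0.40) were lost without 2 and 3 of their 4 libraries, respectively.

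HDAC8 was lower in GR3 than in parental and GR2 cells under vehicle. It had 12.9 and 9.91 CPM in vehicle-treated GR3 cells, against 21.0 and 23.5 CPM in parental cells and 23.0 and 23.2 CPM in GR2 cells. The log2 difference was -0.92 from parental (± 0.14, SE, adjusted p 0.000221) and -0.97 from GR2 cells (adjusted p 6.54e-05), and both held without each library. With only the GR3 and parental vehicle groups in the fit, the call against parental cells was lost (adjusted p 0.0532). Under vehicle HDAC8 differed from parental cells by -0.29 in WZ4002-tolerant and -0.31 in gefitinib-tolerant cells, which did not pass the test (adjusted p 0.151 and 0.13). GR3 cells were not tested against tolerant cells. HDAC3 passed the test once, lower in WZ4002-tolerant than in parental cells under vehicle (-0.34, adjusted p 0.0409), a call lost without any 1 of the 4 libraries (up to 0.244). HDAC8 passed no test between inhibitor and vehicle, with log2 differences of 0.15 to 0.32. 

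Class IIb and class IV enzymes tended upwards under drug. HDAC11, which removes fatty acyl groups, rose in 5 of the 6 responses, and HDAC6, the cytoplasmic tubulin deacetylase, in 4. HDAC11 had 19.9 and 15.6 CPM under WZ4002, against 8.77 and 10.8 CPM under vehicle, in WZ4002-tolerant cells. Parental cells had 25.6 and 31.3 CPM under WZ4002 and 32.4 and 28.9 CPM under gefitinib, against 16.9 and 11.8 CPM under vehicle. GR2 cells had 19.5 and 20.1 CPM under WZ4002, against 7.34 and 6.97 CPM under vehicle. Its rise was 2.55-fold in GR2, 1.94-fold and 2.09-fold in parental cells with WZ4002 and gefitinib, all held without each library. In the tolerant cells it was 1.73-fold with WZ4002 and 1.66-fold with gefitinib, each lost without the first vehicle library (adjusted p 0.0871 and 0.147). In GR3 cells the log2 difference was 0.44 (adjusted p 0.109).

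HDAC6 had 18.6 and 15.4 CPM under WZ4002, against 13.1 and 13.4 CPM under vehicle, in WZ4002-tolerant cells, which did not pass the test (adjusted p 0.112). It had 23.5 and 25.1 CPM under gefitinib, against 11.3 and 15.9 CPM under vehicle, in gefitinib-tolerant cells (log2 0.81 ± 0.16, SE, adjusted p 0.00196; 0.0515 without the first vehicle library). The GR2 rise (0.59, adjusted p 0.00445) held without each library, and the parental rises (0.44 with WZ4002 and 0.45 with gefitinib) were lost without the second vehicle library (adjusted p 0.185 and 0.179). HDAC10, a polyamine deacetylase, rose in GR2 cells (0.91, adjusted p 0.00204; 0.0519 with a term for column position) and with gefitinib in parental cells (0.68, adjusted p 0.0174; 0.141 without the first vehicle library). The sirtuins SIRT1 and SIRT6 passed no test in the 6 responses; the SIRT1 values ranged from -0.29 to 0.09. SIRT1 was higher in vehicle-treated GR3 cells, 31.0 and 34.5 CPM, against 23.4 and 19.9 CPM in parental cells (log2 0.58 ± 0.11, SE, adjusted p 0.00142). That call held without each library and was lost with only the compared groups in the fit (0.104).

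Writers of repressive methylation held most of the members that fell in every response, but not all of them fell. EZH2, SUZ12 and EED are core proteins of PRC2, which writes H3K27 methylation, and EZH1 is the alternative catalytic subunit found more in resting cells. SUV39H1 and SUV39H2 write H3K9 trimethylation in heterochromatin. DNMT1, SUZ12 and SUV39H2 fell in all 6 responses, EZH2 in 4 and SUV39H1 in 3, while EZH1 rose in 3, SETDB1 in 2 and EHMT2 in 1, and EED and DNMT3B passed no test.

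DNMT1 had 75.3 and 74.0 CPM under WZ4002, against 167.8 and 132.4 CPM under vehicle, in WZ4002-tolerant cells. In gefitinib-tolerant cells it had 100.7 and 79.1 CPM under gefitinib, against 148.9 and 136.3 CPM under vehicle. In GR3 cells it had 74.6 and 57.4 CPM under WZ4002, against 159.2 and 88.6 CPM under vehicle. The groups did not overlap, although the GR3 vehicle libraries were far apart. GR2 cells had 73.6 and 71.0 CPM under WZ4002, against 133.3 and 130.9 CPM under vehicle. Parental cells had 53.2 and 59.2 CPM under WZ4002 and 42.4 and 55.3 CPM under gefitinib, against 132.0 and 117.9 CPM under vehicle. The log2 differences were -0.99, -0.67, -0.85, -0.86, -1.14 and -1.35 in the order of responses used above (± 0.22, SE, adjusted p between 0.000181 and 0.0314). The GR2 and both parental falls held without each library. In WZ4002-tolerant cells the call was lost without the first vehicle library (adjusted p 0.0628). In gefitinib-tolerant cells it was lost without either vehicle library (0.19 and 0.0625) or the second gefitinib library (0.266). In GR3 cells the difference was -0.43 without the first vehicle library (0.17) and -0.66 without the second WZ4002 library (0.116).

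SUZ12 had 34.4 and 38.6 CPM under WZ4002, against 69.6 and 55.9 CPM under vehicle, in WZ4002-tolerant cells (log2 -0.76 ± 0.13, SE, adjusted p 0.000843). In GR2 cells it had 32.2 and 30.3 CPM, against 55.7 and 58.7 CPM (-0.85, adjusted p 5.65e-05), and gefitinib-treated parental cells had 31.9 and 32.8 CPM, against 46.8 and 45.2 CPM (-0.50, adjusted p 0.0061). These 3 falls held without each library. The other 3 were -0.61 in gefitinib-tolerant cells, -0.44 in GR3 cells and -0.43 for WZ4002 in parental cells. Each of those was lost without the first vehicle library of its own population (adjusted p 0.0719, 0.194 and 0.0728).

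SUV39H2 was low throughout, with 3.44 and 3.5 CPM under WZ4002, against 9.78 and 11.2 CPM under vehicle, in GR2 cells (log2 -1.36 ± 0.23, SE, adjusted p 0.000133). Parental cells had 3.89 and 3.73 CPM under WZ4002 and 3.38 and 2.80 CPM under gefitinib, against 12.9 and 9.25 CPM under vehicle (-1.31 and -1.55). The calls in GR2 and parental cells held without each library. Falls in WZ4002-tolerant (-0.74), gefitinib-tolerant (-0.94) and GR3 cells (-0.86) were lost without the first vehicle library of each (adjusted p 0.263, 0.0988 and 0.145). SUV39H1 fell in GR2 cells (-1.55, adjusted p 0.00112), held without each library, and in parental cells with WZ4002 (-1.12) and gefitinib (-1.22), lost without the first vehicle library (adjusted p 0.138 and 0.102).

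EZH2 had 17.0 and 22.4 CPM under WZ4002, against 50.8 and 42.1 CPM under vehicle, in WZ4002-tolerant cells. In GR2 cells it had 16.1 and 8.45 CPM under WZ4002, against 29.6 and 33.0 CPM under vehicle. In parental cells it had 7.84 and 15.2 CPM under WZ4002 and 9.01 and 8.87 CPM under gefitinib, against 36.6 and 24.0 CPM under vehicle. These groups did not overlap, although the WZ4002 libraries of parental and of GR2 cells lay far apart. The log2 differences were -1.205, -1.34, -1.36 and -1.63 (± 0.35, SE, adjusted p 0.0166, 0.00414, 0.00502 and 0.0016), and -0.72 and -0.94 in gefitinib-tolerant and GR3 cells (adjusted p 0.13 and 0.0646). The gefitinib call in parental cells held without each library. The others were lost without the first vehicle library of WZ4002-tolerant (adjusted p 0.13) or parental cells (0.0678), or the second WZ4002 library of GR2 cells (0.076). EED passed no test in any response, with values from -0.39 to -0.03. EZH1 had 19.9 and 22.5 CPM under WZ4002 and 18.0 and 19.1 CPM under gefitinib, against 8.51 and 9.14 CPM under vehicle, in parental cells. It rose 2.25-fold and 1.99-fold there, held without each library, and 1.56-fold in gefitinib-tolerant cells, lost without the first vehicle library (adjusted p 0.205).

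**Figure D3:**
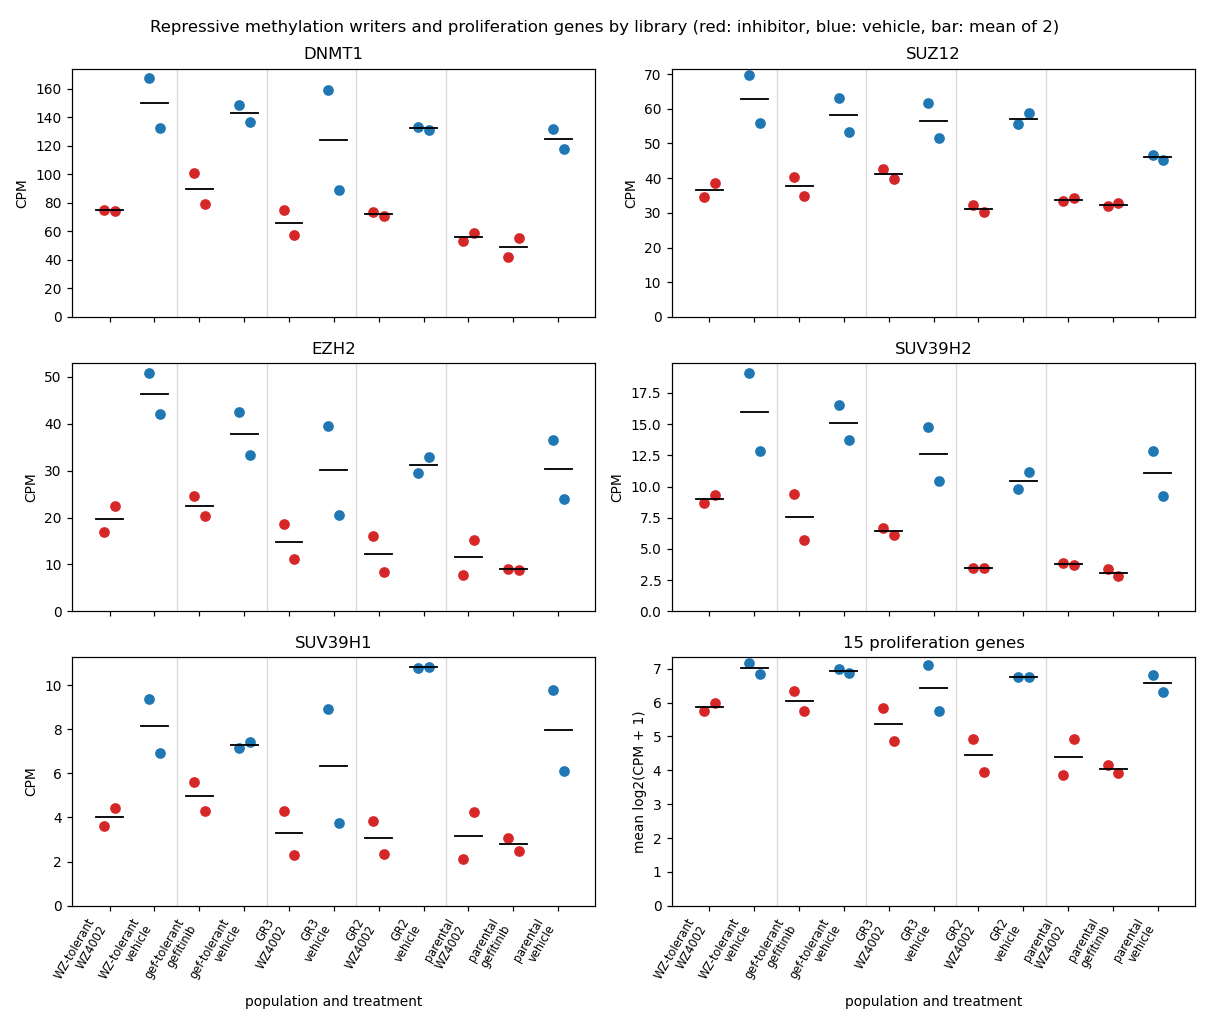
CPM of DNMT1, SUZ12, EZH2, SUV39H2 and SUV39H1 (vertical axes, from 0) and the mean log2(CPM + 1) of 15 proliferation genes in each library (points, red for inhibitor and blue for vehicle) of 11 groups (horizontal axis), with a bar at the mean of 2. Inhibitor-treated points lie below vehicle points for DNMT1 and SUZ12 in every population, and the first GR3 vehicle library lies above the second in all 6 panels, with 7.12 against 5.74 for the proliferation genes.

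Proliferation genes had negative medians in the same responses. DNMT1 differed by -0.86 in GR2 and -0.85 in GR3 cells, and SUZ12 by -0.43 in WZ4002-treated parental and -0.76 in WZ4002-tolerant cells. SUV39H2 differed by -1.36 and -0.86 in the first pair and by -1.31 and -0.74 in the second. Some of these calls were lost without single libraries, as given above. They were both GR3 values, SUZ12 in WZ4002-treated parental cells and SUV39H2 in WZ4002-tolerant cells. Of 15 proliferation genes, including MKI67, TOP2A, PCNA and TYMS, all fell in GR2 cells (median log2 difference -2.26) and in parental cells with WZ4002 (-2.10) and gefitinib (-2.51). In the other responses 6 fell in WZ4002-tolerant (median -1.09), 4 in gefitinib-tolerant (-0.86) and 1 in GR3 cells (-0.99). Their mean log2 level per library was 5.76 and 5.98 under WZ4002, against 7.17 and 6.86 under vehicle, in WZ4002-tolerant cells, and 3.87 and 4.92 under WZ4002, against 6.83 and 6.31 under vehicle, in parental cells. The list and EZH2, SUV39H1 and DNMT1 also split the 2 GR3 vehicle libraries the same way. Fewer cycling cells and less RNA per cell cannot be told apart in bulk RNA, and the part of proliferation in these falls was not tested.

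The promoters of the 4 members that fell in all 5 responses sharing no library, and that of EZH2, were read for letters known from cell cycle genes, since DNMT1, SUZ12, EZH2 and SUV39H2 fell where proliferation genes fell. The log2 difference of HDAC4 was -0.81 in GR2 cells and -0.98 in GR3 cells, and that of DNMT1 was -0.86 and -0.85. The GR3 vehicle libraries of HDAC4 stood at 54.6 and 54.0 CPM. Whether HDAC4 follows proliferation genes was not tested. RefSeq promoters on GRCh38.p14, from 250 bases before to 50 after the start, were matched for 44 of the 45 members; HDAC5 was not matched. The files were counted on hg19, so positions below are of the promoter table only. E2F-like letters were searched as TTCCCGC, as TTGGCGC, as TTCGCGC and as TTGCCGC, and cell cycle homology region (CHR)-like letters as TTTGAA, each on both strands. Capitals mark these matches on the gene's strand, so that a match to the other strand reads as its reverse complement.
DNMT1: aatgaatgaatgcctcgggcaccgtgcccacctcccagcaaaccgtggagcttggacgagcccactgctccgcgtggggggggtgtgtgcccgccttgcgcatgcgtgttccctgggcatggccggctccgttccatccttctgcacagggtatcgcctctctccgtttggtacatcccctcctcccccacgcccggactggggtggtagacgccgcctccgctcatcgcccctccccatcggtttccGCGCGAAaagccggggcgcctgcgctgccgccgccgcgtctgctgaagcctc
SUZ12: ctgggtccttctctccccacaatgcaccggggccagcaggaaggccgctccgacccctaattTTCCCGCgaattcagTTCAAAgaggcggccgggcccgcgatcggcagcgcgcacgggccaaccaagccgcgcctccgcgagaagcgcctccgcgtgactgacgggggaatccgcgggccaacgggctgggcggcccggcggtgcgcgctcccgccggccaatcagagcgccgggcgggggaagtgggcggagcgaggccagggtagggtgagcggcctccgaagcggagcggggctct
EZH2: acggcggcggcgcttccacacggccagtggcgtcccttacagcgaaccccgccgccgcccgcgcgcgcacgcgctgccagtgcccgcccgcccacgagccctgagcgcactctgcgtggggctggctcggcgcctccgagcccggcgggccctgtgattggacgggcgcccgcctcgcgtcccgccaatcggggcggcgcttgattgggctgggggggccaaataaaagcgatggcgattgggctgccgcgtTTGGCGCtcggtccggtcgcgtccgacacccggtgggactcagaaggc
SUV39H2: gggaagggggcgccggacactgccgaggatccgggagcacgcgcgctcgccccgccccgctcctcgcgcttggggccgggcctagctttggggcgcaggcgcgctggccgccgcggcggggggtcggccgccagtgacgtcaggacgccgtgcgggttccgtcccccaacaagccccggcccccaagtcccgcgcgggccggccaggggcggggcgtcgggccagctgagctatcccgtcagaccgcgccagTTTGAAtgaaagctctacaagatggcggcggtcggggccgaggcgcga
HDAC4: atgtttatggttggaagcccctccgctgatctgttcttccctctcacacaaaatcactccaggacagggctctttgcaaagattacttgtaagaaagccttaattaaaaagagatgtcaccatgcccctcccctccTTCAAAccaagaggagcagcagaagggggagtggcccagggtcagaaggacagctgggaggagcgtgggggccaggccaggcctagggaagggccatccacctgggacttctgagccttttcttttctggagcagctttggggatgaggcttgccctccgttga
The windows are chr19:10194904-10195203 (minus strand), chr17:31936757-31937056 (plus strand), chr7:148884242-148884541 (minus strand), chr10:14878616-14878915 (plus strand) and chr2:239274732-239275031 (minus strand). DNMT1, SUZ12 and EZH2 each held 1 E2F-like match, starting 2 and 188 bases before and 2 bases after the start, and SUZ12, SUV39H2 and HDAC4 each held 1 CHR-like match. E2F-like letters stood in 9 of 44 member promoters (20.5%), against 2201 of 10717 promoters of genes tested (20.5%) and 13% of all 35116 in the table. The other members with such letters were KDM1A, KDM1B, EZH1 and HDAC6, which rose in some responses, TET3, which fell in some, and SIRT6. CHR-like letters stood in 5 of 44 (11.4%), against 9.67% of promoters of genes tested and 15.2% of all. The members' share is close to that of other genes, and a match is a string of letters only.

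The other methyltransferases and the TET enzymes passed the test in at most 3 responses each. TET3, which oxidises methylcytosine, had 43.0 and 38.6 CPM under WZ4002, against 68.7 and 53.7 CPM under vehicle, in WZ4002-tolerant cells (log2 -0.57 ± 0.16, SE, adjusted p 0.0138; 0.182 without the first vehicle library). It fell in GR2 cells (-0.78, adjusted p 0.000647), held without each library, and in GR3 cells (-0.46, adjusted p 0.0481; 0.248 without the second vehicle library). SETDB1, which silences repeats through H3K9 methylation, rose in parental cells with WZ4002 (0.51) and gefitinib (0.47), both lost without the second vehicle library (adjusted p 0.0697 and 0.108). KMT2C, an H3K4 methyltransferase of enhancers, rose in GR2 (0.91; adjusted p 0.0891 without the second WZ4002 library) and in WZ4002-treated parental cells (0.78; 0.106 without the first vehicle library). EHMT1 fell in WZ4002-tolerant cells with WZ4002 (-0.396) and in parental cells with WZ4002 (-0.352) and gefitinib (-0.31). These calls were lost without 2, 3 and 4 of their 4 libraries, respectively. EHMT2, an H3K9 methyltransferase, rose in GR2 cells (0.43, adjusted p 0.0217), a call lost without 3 of the 4 libraries (up to 0.145) and with a term for column position (0.227). DNMT3B, TET2, KMT2A and KMT2D passed no test in the 6 responses, and DNMT3A passed it once, with WZ4002 in parental cells (-0.44, adjusted p 0.0496; 0.179 without the first vehicle library).

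Of the 12 demethylases of lysines 4, 9 and 36, 6 rose in GR2 cells, 4 and 3 in parental cells with WZ4002 and gefitinib and 1 in GR3 cells, none in tolerant cells, and none fell in any response. The rising shares were 50% in GR2 cells, where 27.4% of genes rose, 33.3% and 25% in parental cells, where 25.1% and 23.5% rose, and 8.3% in GR3 cells, where 12.1% rose. With a term for column position the GR2 calls of KDM1B, KDM3A, KDM3B and KDM5B were lost. Those of KDM1A and KDM2A were kept with that term and without each library. KDM1A, the H3K4 demethylase of the CoREST complex, had the widest range of the class. KDM2A, an H3K36 demethylase that binds CpG islands, rose in GR2 and parental cells.

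KDM1A had 637.4 and 666.1 CPM under WZ4002, against 249.3 and 257.8 CPM under vehicle, in GR2 cells (2.56-fold, log2 1.36 ± 0.17, SE, adjusted p 7.78e-06), held without each library. Parental cells had 787.8 and 631.6 CPM under WZ4002 and 632.8 and 765.2 CPM under gefitinib, against 432.6 and 553.1 CPM under vehicle. Those log2 differences were 0.53 and 0.51 (adjusted p 0.0176 and 0.0222), lost without the first vehicle library (0.191 and 0.224). In tolerant and GR3 cells no call was made: 378.5 and 305.0 CPM under WZ4002, against 360.7 and 275.7 CPM under vehicle, in WZ4002-tolerant cells overlap, with a log2 difference of 0.11. Gefitinib-tolerant cells had 0.40 (adjusted p 0.0827) and GR3 cells 0.37 (adjusted p 0.125).

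Vehicle-treated derivatives other than GR3 had less KDM1A than parental cells. The log2 difference was -0.63 in WZ4002-tolerant (adjusted p 0.0165), -0.67 in gefitinib-tolerant (0.0111) and -0.95 in GR2 cells (0.00149). The tolerant calls were lost without the second parental library (adjusted p 0.163 and 0.125), and the GR2 call with a term for column position (0.0727). Under drug the tolerant cells were lower as well, by log2 differences of -1.05 under WZ4002 (adjusted p 0.000256) and -0.78 under gefitinib (0.00261), both held without each library. The test of tolerant minus parental responses did not call KDM1A (-0.42, adjusted p 0.336, for WZ4002 and -0.10, adjusted p 0.886, for gefitinib).

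KDM5A, the demethylase tied to tolerance in earlier work on these cells, changed little. It had 84.2 and 68.6 CPM under WZ4002, against 70.4 and 62.7 CPM under vehicle, in WZ4002-tolerant cells, and 74.7 and 82.6 CPM under gefitinib, against 66.2 and 72.4 CPM under vehicle, in gefitinib-tolerant cells. Under vehicle its log2 difference from parental cells was -0.02 and 0.04 in these populations, each with an SE of 0.14. The drug differences were 0.19 and 0.18, and neither passed the test (adjusted p 0.296 and 0.342). GR3 cells had 87.0 and 74.0 CPM under WZ4002, against 68.0 and 69.2 CPM under vehicle (0.22), and GR2 cells 87.1 and 97.8 CPM, against 85.4 and 70.4 CPM (0.25). Parental cells had 86.4 and 100.3 CPM under WZ4002 and 97.8 and 85.0 CPM under gefitinib, against 68.0 and 66.5 CPM under vehicle. There it rose 1.38-fold and 1.35-fold (log2 0.46 and 0.43, adjusted p 0.0118 and 0.0177). The WZ4002 call was lost without 2 of its 4 libraries and the gefitinib call without 3 of 4. 

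KDM6A and KDM6B, which remove H3K27 methylation, passed no test in any of the 17 comparisons. KDM6A stayed between 10.01 and 14.73 CPM in all 22 libraries. KDM6B had log2 differences from -0.06 to 0.45 in the responses, and its vehicle-treated GR3 libraries stood at 14.7 and 29.2 CPM, where the second was the highest of all 22. KDM7A, which acts on H3K9 and H3K27, rose 2.74-fold and 2.46-fold in parental cells, with 16.6 and 20.7 CPM under WZ4002 and 17.6 and 15.7 CPM under gefitinib, against 4.93 and 7.61 CPM under vehicle. The gefitinib call was lost without the first vehicle library (adjusted p 0.0602), and the GR2 rise (0.79, adjusted p 0.0487) without 3 of its 4 libraries (up to 0.359).

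**Figure D4:**
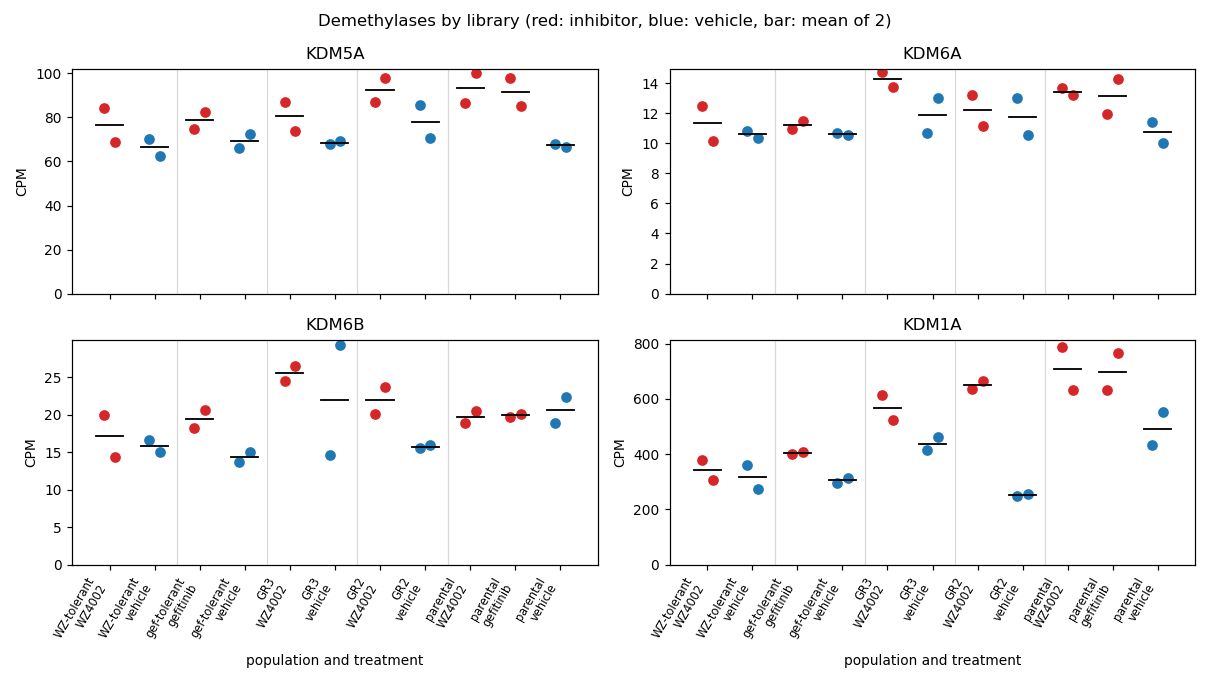
CPM of the demethylases KDM5A, KDM6A, KDM6B and KDM1A (vertical axes, from 0) in each library (points, red for inhibitor and blue for vehicle) of 11 groups (horizontal axis), with a bar at the mean of 2. KDM5A lies between 62.7 and 100.3 CPM and KDM6A between 10.01 and 14.73 CPM in all libraries, and KDM1A is lowest in vehicle-treated GR2 cells, at 249.3 and 257.8 CPM.

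KDM2A had 167.2 and 141.1 CPM under WZ4002, against 176.9 and 159.9 CPM under vehicle, in WZ4002-tolerant cells, which did not pass the test (log2 -0.13). It had 192.5 and 214.9 CPM, against 137.9 and 128.8 CPM, in GR2 cells and 197.8 and 234.0 CPM, against 136.6 and 150.4 CPM, in parental cells with WZ4002. Those rises were 0.61 and 0.58 (± 0.12, SE, adjusted p 0.000691 and 0.00139), and 0.54 with gefitinib in parental cells, all held without each library. KDM5B, the H3K4 demethylase of slow-cycling melanoma cells, rose in GR2 (0.48) and WZ4002-treated parental cells (0.59), lost without the first vehicle library of each (adjusted p 0.0935 and 0.12). KDM3B rose in GR2 cells (0.49, adjusted p 0.00244; 0.119 with a term for column position), and KDM1B in GR3 (0.52, adjusted p 0.0302; 0.209 without the second vehicle library) and GR2 cells (0.41, adjusted p 0.04; 0.323 without the first WZ4002 library).

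The inhibitors were set against each other in parental PC9 cells, which received both at 1 labelled dose for 24 h. WZ4002 against gefitinib gave 0 of 45 members and 0% of genes higher and 0% lower in limma, with 0 members and 525 genes at an unadjusted p under 0.05. The 95% interval of the log2 difference lay within 1 of 0 for 44 of 45 members, and the bounds ran from -0.77 to 1.01 over all members. HDAC5 had the difference -0.23 ± 0.26 (SE), and EZH2 0.27 ± 0.35. The intervals leave room for differences up to those bounds.

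Under vehicle, derivatives were compared with the same 2 parental libraries, so the 4 comparisons share them. In WZ4002-tolerant cells 4 members were higher and 6 lower than in parental cells, against 8.72% and 9.73% of genes. In gefitinib-tolerant cells 2 were higher and 5 lower, against 9.39% and 9.64% of genes. In GR3 cells 3 were higher and 1 lower, against 9.77% and 11.1%, and in GR2 cells 3 and 4, against 8.98% and 7.76%. Beside those percentages, the 2 higher members in gefitinib-tolerant cells and the 1 lower member in GR3 cells are small shares of 45, and the other counts are near the shares of all genes. Counts without 1 library fell to 5 or 6 in WZ4002-tolerant cells (5 without either parental library or the first vehicle library, 6 without the second), to 3 and 2 in gefitinib-tolerant cells (second parental and first vehicle library) and to 3, 3 and 4 in GR2 cells (first parental, first and second GR2 library).

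Both tolerant populations shared several values. KDM4A, an H3K9 and H3K36 demethylase, had 30.3 and 30.9 CPM in WZ4002-tolerant and 29.2 and 34.4 CPM in gefitinib-tolerant cells, against 55.5 and 56.0 CPM in parental cells. Its log2 differences were -0.84 and -0.80 (± 0.17, SE, adjusted p 0.00365 and 0.00512), held in WZ4002-tolerant cells and lost in gefitinib-tolerant cells without the first vehicle library (0.0682). EED had 52.2 and 45.4 CPM and 55.2 and 43.6 CPM in the same populations, against 33.1 and 30.1 CPM in parental cells. The EED differences of 0.61 and 0.62 were lost without the second parental library (adjusted p 0.101 and 0.0929). HDAC1 was lower in both (log2 difference -0.38 and -0.39), lost without the first parental library (adjusted p 0.0973 and 0.0896), as was HDAC6 (-0.51 and -0.49), likewise lost (0.216 and 0.238). In WZ4002-tolerant cells alone, TET3 (0.71; adjusted p 0.062 without the first parental library) and SUZ12 (0.43; 0.0988 without it) passed the test for a higher level.

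Between the derivatives GR3 and GR2, GR3 against GR2 cells under vehicle gave 6 members higher and 2 lower, against 15.6% and 17.5% of genes, and 13 calls in place of 8 without the second GR3 library. KDM2B, a demethylase that recruits Polycomb complexes to CpG islands, had 29.2 and 21.4 CPM in GR3 cells, against 12.3 and 11.7 CPM in GR2 cells (log2 1.00 ± 0.17, SE, adjusted p 0.00037). HDAC11 had 17.8 and 21.8 CPM, against 7.34 and 6.97 CPM (1.35, adjusted p 7.1e-05). KDM1A had 413.9 and 463.7 CPM, against 249.3 and 257.8 CPM (0.79, adjusted p 0.00206), lost with a term for column position (0.109). SIRT1 was also higher (0.48, adjusted p 0.00317). HDAC9 and HDAC8 were the 2 lower members. Of these 8 calls 6 held without each library, the exceptions being KDM3B (0.49; adjusted p 0.0506 without the second GR2 library) and HDAC4 (0.53; 0.101 without it). KDM3B was also above the parental level in GR3 cells (0.36, adjusted p 0.0398), a call lost without any 1 of the 4 libraries (up to 0.161). In GR2 against parental cells the other calls were KDM2B (-0.62), HDAC11 (-0.89) and KMT2A (0.76). Each was lost without the first parental library and with a term for column position, and KMT2A without any 1 of the 4 libraries.

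Tolerant and parental cells were compared under the same inhibitor too. In WZ4002-tolerant against parental cells under WZ4002 5 members were higher and 11 lower, against 17.6% and 19.0% of genes. In gefitinib-tolerant against parental cells under gefitinib 6 were higher and 8 lower, against 16.3% and 15.6%. Without the second WZ4002 library of the tolerant cells 5 calls were left, and 9 without the second of the parental cells. Without the first gefitinib library of the tolerant cells 3 were left, and 5 and 9 without the first and second of the parental cells. SUV39H2 had 8.66 and 9.32 CPM in WZ4002-tolerant cells, against 3.89 and 3.73 CPM in parental cells under WZ4002 (2.08-fold, log2 1.05, adjusted p 0.00236), held without each library. It had 9.44 and 5.73 CPM, against 3.38 and 2.80 CPM, under gefitinib (2.05-fold, adjusted p 0.00293; 0.0629 without the first tolerant library). DNMT1 (0.87, adjusted p 0.00675) and EZH2 (1.24, adjusted p 0.0136) were higher under gefitinib, both lost without the first tolerant library (0.0852 and 0.0995). Of the 15 proliferation genes 10 were higher under WZ4002 (median 1.27) and 15 under gefitinib (median 1.82) in the same comparisons, and their part in those values was not tested.

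SETDB1 was lower in tolerant cells under drug. It had 14.3 and 11.9 CPM in WZ4002-tolerant cells, against 26.1 and 25.6 CPM in parental cells under WZ4002 (log2 -0.94 ± 0.13, SE, adjusted p 8.69e-05), held without each library. Under gefitinib it had 15.8 and 18.1 CPM in tolerant cells, against 26.6 and 23.6 CPM in parental cells (-0.54, adjusted p 0.00577; 0.0713 without the first tolerant library). KDM7A was lower as well, with log2 differences of -1.28 under WZ4002 and -1.16 under gefitinib. The WZ4002 value was -0.89 without the second tolerant library (adjusted p 0.107), and the gefitinib value -0.93 without the first (0.123).

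Whether responses differ between populations was tested directly. For WZ4002, GR3 minus GR2, 1 member was higher and 3 lower, against 6.78% and 6.80% of genes. For WZ4002, WZ4002-tolerant minus parental, 0 were higher and 2 lower, against 2.10% and 2.40% of genes. For gefitinib, gefitinib-tolerant minus parental, 0 were called in limma in either direction, against 1.07% and 0.936% of genes, with 3 at an unadjusted p under 0.05. Each of the 6 differences was lost without at least 1 library. Counts for GR3 minus GR2 lay between 0 (without the first GR2 vehicle or the second GR3 WZ4002 library) and 7 (without the first GR3 vehicle library), and those for WZ4002-tolerant minus parental between 0 (without the first parental vehicle, second parental WZ4002, first tolerant vehicle or second tolerant WZ4002 library) and 2.

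KDM1A rose 2.56-fold in GR2 and had a ratio of 1.29 in GR3 cells, where it had 614.0 and 522.8 CPM under WZ4002, against 413.9 and 463.7 CPM under vehicle. The difference of responses was -0.99 ± 0.24 (SE, adjusted p 0.0124), a call lost without 2 of the 8 libraries. HDAC5 rose in both, by 1.40 in GR3 and 2.57 in GR2 cells (difference -1.16, adjusted p 0.0424), and this difference was lost without 6 of the 8. HDAC11 differed by -0.91 (adjusted p 0.0353) and HDAC2 by 0.60 (adjusted p 0.041), each lost without 7 of the 8. For HDAC5 the treated GR3 libraries, 62.3 and 72.8 CPM, lay below the treated GR2 libraries, 92.7 and 117.8 CPM, while under vehicle GR3 lay above GR2. KDM2A and SETDB1 rose with WZ4002 in parental cells and not in WZ4002-tolerant cells, with differences of -0.71 (adjusted p 0.0311) and -0.71 (adjusted p 0.0419). The KDM2A difference was lost without 4 of the 8 libraries compared and the SETDB1 difference without 7 of them.

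**Figure D5:**
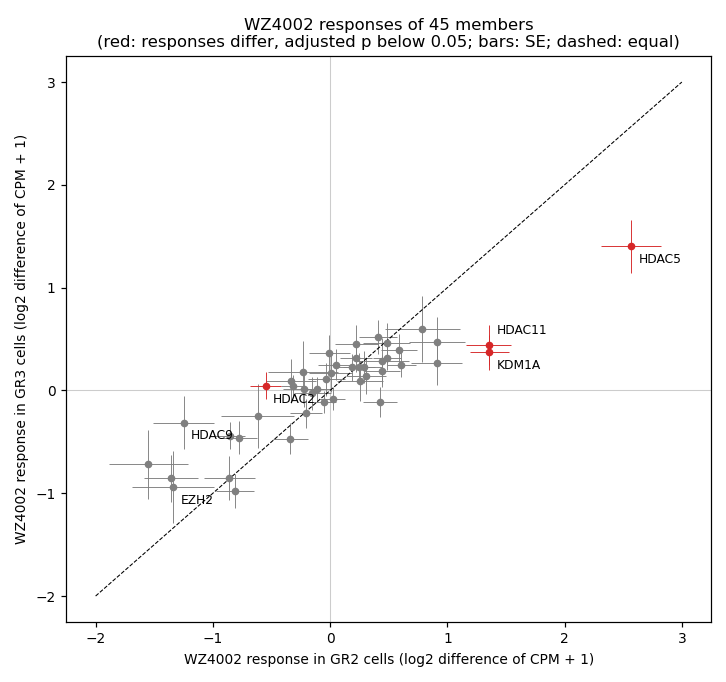
Log2 WZ4002 response of each of 45 members in GR3 cells (vertical axis) against GR2 cells (horizontal axis), with bars of 1 SE and a dashed line of equal responses; red points are members whose responses differed at an adjusted p below 0.05. HDAC5, HDAC11 and KDM1A lie right of the line and HDAC2 above it.

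Partner genes outside the members were read from 8 lists of related complexes. Between 12.1% (GR3) and 27.4% (GR2) of all genes rose in a response, and between 9.87% (GR3) and 28.3% (GR2) fell. No list was tested as a set. Of 12 histone acetyltransferases 0 rose and 2 fell in WZ4002-tolerant cells, 1 and 1 in gefitinib-tolerant, 2 and 0 in GR3, 2 and 2 in GR2 cells, and 3 and 2 with WZ4002 and 4 and 2 with gefitinib in parental cells. KAT2B, an acetyltransferase of H3K9, rose by 1.81 in parental cells with WZ4002, 1.68 with gefitinib and 1.38 in GR2 cells, held without each library. It also passed the test in GR3 cells (0.875). Of 19 other histone methyltransferases tested 1 rose and 7 fell in WZ4002-tolerant, 1 and 3 in gefitinib-tolerant, 1 and 3 in GR3 and 2 and 6 in GR2 cells, and 2 and 7 with WZ4002 and 2 and 6 with gefitinib in parental cells. PRMT5, an arginine methyltransferase, fell in WZ4002-tolerant (log2 difference -0.77), GR2 (-1.32), WZ4002-treated parental (-0.855) and gefitinib-treated parental cells (-0.949), each held without each library. It also passed the test in GR3 cells (-0.491).

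Of 8 subunits of the H3K4 methyltransferase complex COMPASS none rose in any of the 6 responses, and between 1 (GR3) and 3 (WZ4002-tolerant and parental with each inhibitor) fell. Of all genes 9.87% fell in GR3, 15.6% in WZ4002-tolerant and 22.3% and 21.8% in parental cells with WZ4002 and gefitinib. WDR5, the core subunit shared by these complexes, fell in GR2 (log2 difference -1.24) and in parental cells with WZ4002 (-1.202) and gefitinib (-1.2), held without each library. It also passed the test in GR3 cells (-0.701). Of 11 tested partners of heterochromatin and DNA methylation between 1 (GR3) and 6 (GR2 and gefitinib-treated parental cells) fell, and 2 rose in GR2 and in WZ4002-treated parental cells. HELLS, a remodeller needed for DNA methylation, fell in parental cells with WZ4002 (log2 difference -1.89) and gefitinib (-2.24), held without each library. It also passed the test in GR2 (-1.463) and GR3 cells (-0.944). All 15 proliferation genes fell in the parental and GR2 responses, and their part in the HELLS result was not tested. Of 12 tested PRC2 accessory and PRC1 subunits between 1 and 3 rose in each response, and between 0 (tolerant cells) and 4 (GR2) fell.

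Of 18 corepressor subunits that bind HDAC or KDM1A proteins 0 rose and 4 fell in WZ4002-tolerant, 1 and 3 in gefitinib-tolerant, 2 and 1 in GR3 and 4 and 4 in GR2 cells, and 4 and 2 with each inhibitor in parental cells. Their rising share was highest at 22.2%, in GR2 cells and in parental cells with each inhibitor, and stood below the share of all genes in each of the 6 responses. MBD2 and MTA3, subunits of the NuRD deacetylase complex, were lower in tolerant than in parental cells under drug, with log2 differences of -1.17 and -1.18 under WZ4002 and -0.98 and -0.95 under gefitinib, held without each library. CBX7, a PRC1 reader of H3K27 methylation, was lower than in parental cells under vehicle in WZ4002-tolerant (-1.48), gefitinib-tolerant (-1.38) and GR3 cells (-0.86), held without each library, and in GR2 cells (-0.53; adjusted p 0.189 without the second parental library). SMYD2, a lysine methyltransferase, was higher in tolerant than in parental cells under WZ4002 (1.74) and gefitinib (1.39), held without each library. Of 11 tested other demethylases and sirtuins between 0 and 2 rose and between 0 and 2 fell in each response, and of the 3 BET readers of acetylated histones 0 or 1 rose and 0 or 1 fell.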

How the data were processed

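Polyadenylated RNA of 22 libraries (11 groups of 2) was sequenced from a strand-specific kit, per the labels' protocols. The authors deposited CPM, read counts scaled to library size, for 17165 genes to 2 decimals; STAR, HTSeq and hg19 are named without versions or settings, per the submitters' processing notes. The table holds no 0, and its listed genes take 54.6 to 64.2% of the CPM total. Depth, 23.6 to 49.6 M reads, was read from the steps between CPM values, of which at least 99.988% are whole reads within the rounding error of 0.005 CPM, against 23.6 to 49.6% by chance.

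Genes with 1 CPM or more in at least 2 libraries (15485, with all 45 members) were tested on log2(CPM + 1), with a pseudocount of 1, by limma 3.58.1 in R 4.3.3 with a mean-variance trend, 11 group means and 11 residual degrees of freedom. P-values were Benjamini-Hochberg adjusted within each of 17 comparisons, at 0.05, and the procedure was tested on simulated data. The members, the lists and the tests were chosen with earlier results of these data known. Named genes are KDM5A, KDM6A, KDM6B, KDM1A, HDAC1, HDAC2, SIRT1, EZH2 and DNMT1, up to 4 called members per direction and comparison with the lowest adjusted p, up to 2 called genes per direction of each partner list, and DUSP6; further members were named after their values were seen. The fit was repeated with a replicate block, with median-of-ratios scaling, with a pseudocount of 0.1, without the filter, with only the groups compared, without each library, and with a term for the 3 runs of columns in the table, added after seeing the data. Both GR2 vehicle libraries stand in the last run, and the labels do not call it a batch.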

Additional observations from a re-analysis of the deposited data

Results flagged for a closer look

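Responses that differ between populations by a test of the difference itself were found for 6 members. WZ4002 responses of GR3 minus GR2 cells differed for KDM1A (-0.988 ± 0.238 on the log2 scale, SE, limma adjusted p 0.0124), HDAC5 (-1.163 ± 0.36, adjusted p 0.0424), HDAC11 (-0.911 ± 0.271, adjusted p 0.0353) and HDAC2 (0.597 ± 0.183, adjusted p 0.041). WZ4002 responses of WZ4002-tolerant minus parental cells differed for KDM2A (-0.713 ± 0.175, adjusted p 0.0311) and SETDB1 (-0.706 ± 0.186, adjusted p 0.0419). Each comparison was refitted 8 times, without 1 of its libraries each time. The call was lost in 2 of these refits for KDM1A, 4 for KDM2A, 6 for HDAC5 and 7 for HDAC11, HDAC2 and SETDB1. With a term for the column runs the adjusted p was 0.0952 for KDM1A and 0.0907 for HDAC11. With only the compared groups in the fit it was 0.053 for HDAC5, 0.052 for HDAC2, 0.143 for KDM2A and 0.181 for SETDB1. Both GR2 vehicle libraries stand in 1 run of columns, and its part in these differences was not tested beyond that term.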

How the results depend on the processing

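No call changed sign under any alternative run. Of 265 calls of single members and named partner genes, 260 held with a pseudocount of 0.1, 251 without a filter, 260 with median-of-ratios scaling, 263 with the replicate block, 237 with the term for column runs and 199 with only the groups compared, a fit with fewer samples to estimate the spread. Of the refits that left out 1 library, 743 kept the call and 385 lost it. With only the groups compared, the member calls numbered 13 for WZ4002 in parental cells, 2 in GR3 cells, 13 for GR2 against parental and 1 for GR3 against parental cells under vehicle, 6 for WZ4002-tolerant against parental cells under WZ4002, 2 for GR3 minus GR2 and 0 for WZ4002-tolerant minus parental responses. The column term left 2 calls for GR2 against parental cells. Leaving out 1 library at a time gave 12 to 16 calls for WZ4002 in parental, 2 to 11 in GR3, 2 to 9 in gefitinib-tolerant and 3 to 10 in WZ4002-tolerant cells. Against parental cells under vehicle it gave 3 to 5 (GR2), 2 to 7 (gefitinib-tolerant) and 5 to 6 (WZ4002-tolerant), and 6 to 13 for GR3 against GR2. Under drug it gave 3 to 14 (gefitinib-tolerant) and 5 to 18 (WZ4002-tolerant), and for the differences 0 to 7 (GR3 minus GR2) and 0 to 2 (WZ4002-tolerant minus parental). Replicate numbers are shared by the groups, but the labels tie them to nothing else, and deviations of same-numbered libraries correlated between -0.464 and 0.633 over the 55 pairs of groups; the replicate block gave 20 calls in place of 19 for gefitinib in parental cells and 9 in place of 8 in GR3 cells. A count test was planned and not run, since 2 decimals are too coarse to recover every read.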

Other observations

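Over 11 group means, the genes whose log2 level followed KDM5A most closely were CYTH2 (Pearson r 0.985), SOS2 (0.975), CPT1B (0.97), STAG3L5P (0.969) and the unnamed ENSG00000268087 (0.969). EZH2 was followed by GINS1 (0.993), WDR62 (0.993), KNSTRN (0.989), WDR76 (0.989) and NUP205 (0.987), and KDM6B by SYNE4 (0.937), ENSG00000108292 (0.936), LINC01842 (0.93), TNS2-AS1 (0.929) and RFX5 (0.928). These are descriptions over means that share libraries, depth and treatments.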
